A study of Mus musculus with 12 samples.

Results

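The levels of 10 genes that organise B cell follicles and bring lymphocytes to them were followed across 12 mouse colon RNA-seq libraries. They were taken by symbol, 10 of the 54532 genes counted in each library. All are protein-coding in GENCODE M21 on GRCm38: Ccl20 and Cr2 lie on chromosome 1, Ccl19 on 4, Cxcl13 on 5, Fcer2a on 8, Cxcr5 on 9, Ccr7 on 11, Ccr6 and Ltb on 17, and Ms4a1 on 19. By role they are 3 chemokines (Cxcl13, Ccl19 and Ccl20), their receptors (Cxcr5, Ccr7 and Ccr6), the cytokine gene Ltb, and 3 genes of the mature B cell surface (Cr2, Fcer2a and Ms4a1). The mice were male C57BL/6 animals, by the methods 6 weeks old when supplied and kept for a week before grouping. There were 4 groups of 3 libraries each. Con mice had drinking water only and the gavage vehicle by the study's methods, while the labels call them untreated. DSS mice drank 3% (w/v) dextran sulfate sodium, a polysaccharide that injures the colonic epithelium, for 5 days, with the same vehicle by the methods. UA+DSS mice (labelled UA DSS) also had 200 mg/kg ursolic acid, a plant triterpenoid, by gavage from 1 day before DSS. By the methods it was given daily for 7 days. DSS+UA mice (labelled DSS UA) had the same dose starting 3 days after DSS began, daily for 4 days by the methods. The labels give tissue but not the stretch of colon, and they do not say whether each library was a different animal, so p-values measure the spread between these libraries.

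The colon wall holds isolated lymphoid follicles and larger colonic patches, in which B cells gather around follicular stromal cells. Lymphotoxin, whose membrane form contains the product of Ltb, acts on stromal cells through its receptor and noncanonical NF-kappaB, and stromal CXCL13 in turn draws cells that carry CXCR5. CCL19 and CCL21 guide cells with CCR7, naive T cells and migrating dendritic cells among them, and CCL20 from epithelium above a follicle draws cells with CCR6. A piece of colon with a follicle in it can thus hold more of these transcripts than a piece without one.

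Totals ran from 15566216 to 19498383 counts per library. Values are counts per 1000000 (CPM) scaled by TMM, a between-library scaling of counts. The 8 colonic epithelial markers summed to 5569 to 26430 CPM in every library, as a colon sample should hold. Some libraries stood apart within their groups. Con 1 summed to 255 CPM over 17 B cell markers against 61.8 and 81.9 CPM in Con 2 and Con 3, and DSS 2 summed to 16580 CPM over 6 neutrophil markers against 584 and 784 CPM in DSS 1 and DSS 3. A position score, the mean log2 level of 5 distal Hox genes minus that of 6 proximal ones, was 5.52 in Con 1 and -3.02 and -1.83 in Con 2 and Con 3. It ran from 0.37 to 3.10 in DSS, from -5.70 to -4.16 in UA+DSS and from 4.12 to 5.06 in DSS+UA, so the 4 groups differed in it as well as in treatment.

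Cxcl13 was the most abundant of the 10 genes per kilobase of exon in each group and rose under DSS. It read 22.5, 5.82 and 5.29 CPM in the Con libraries and 453, 126 and 162 CPM in DSS. It read 23.5, 20.1 and 59.6 CPM in UA+DSS, then 107, 31.2 and 64.1 CPM in DSS+UA. Every DSS library lay above every library of the other groups. DSS exceeded Con by 4.46 on the log2 scale (SE 0.82, n = 3 a group, adjusted p = 0.00519, edgeR quasi-likelihood test, Benjamini-Hochberg over 17658 genes), a 22.0-fold difference. The 250 bases before its RefSeq start (chr5:95956689-95956938, plus strand, GRCm38.p6) are shown with those of Ccl20 (chr1:83116516-83116765, plus strand), another of the chemokines, because noncanonical NF-kappaB is the known link between lymphotoxin and Cxcl13. Capitals mark a match to GGGAGAT, the first letters of a RelB dimer site known from the Cxcl13 promoter itself, so that its match there was given by the choice of motif and is no finding.
Cxcl13: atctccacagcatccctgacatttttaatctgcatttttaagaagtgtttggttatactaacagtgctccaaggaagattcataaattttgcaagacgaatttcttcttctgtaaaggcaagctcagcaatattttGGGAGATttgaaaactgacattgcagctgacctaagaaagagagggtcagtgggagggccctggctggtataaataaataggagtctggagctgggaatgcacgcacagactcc
Ccl20: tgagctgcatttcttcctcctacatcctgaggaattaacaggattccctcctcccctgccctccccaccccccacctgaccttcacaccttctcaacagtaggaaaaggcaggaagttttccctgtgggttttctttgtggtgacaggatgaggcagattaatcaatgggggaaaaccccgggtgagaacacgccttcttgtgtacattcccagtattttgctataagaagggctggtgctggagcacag
Both strands were searched. Of 32851 RefSeq promoter windows of 250 bases, 1201 (3.66%) held the motif. Windows were found for 7 of the 10 genes, and all were searched over 250 bases. A match is a description of these letters and no binding was measured.

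**Figure D1:**
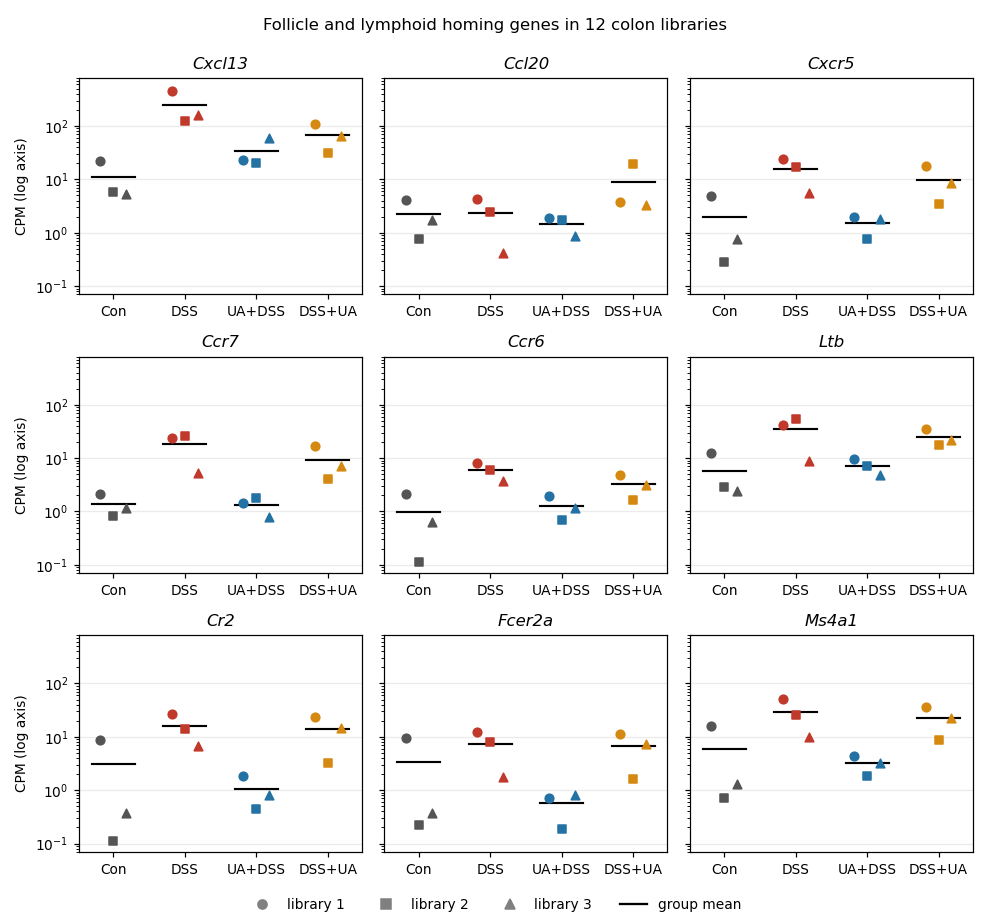
CPM of the 9 tested genes in each library (log axis, same scale in every panel), by group; symbols mark libraries 1 to 3 and bars the group means. Cxcl13 in DSS (126 to 453 CPM) lies above all other libraries, while Con 1 lies far above Con 2 and Con 3 for Cr2, Fcer2a and Ms4a1.

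Ccl20, the other chemokine that could be tested, did not pass the threshold in any comparison. It read 4.19, 0.777 and 1.77 CPM in Con, 4.33, 2.41 and 0.423 CPM in DSS, 1.86, 1.75 and 0.851 CPM in UA+DSS, then 3.79, 19.1 and 3.33 CPM in DSS+UA. The Con and DSS libraries interleaved, and 1 library, DSS+UA 2, was 5.37 times the mean of the other 2 in its group. For Ccl20, DSS minus Con was 0.09 on the log2 scale (95% interval -1.86 to 2.04) and DSS+UA minus DSS was 1.87 (-0.11 to 3.84, adjusted p = 0.189). Ccl19, on chromosome 4, was at the edge of detection, with 0 counts in each Con and UA+DSS library, 4, 2 and 0 counts in DSS, and 1, 0 and 1 counts in DSS+UA. A count of 0 allows up to 3 counts in a library. Near-identical copies (Ccl19-ps1, Ccl19-ps3, Gm12407 and Gm2564) hold 52.0% of its stretches of 50 bases, so that reads may have been lost or split, and Ccl19 was neither tested nor given a fold.

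The 3 chemokine receptors rose together under DSS. Cxcr5, the CXCL13 receptor of B cells and follicular helper T cells, read 4.91, 0.277 and 0.749 CPM in Con and 24.5, 16.7 and 5.60 CPM in DSS. Its UA+DSS libraries read 1.99, 0.750 and 1.81 CPM and its DSS+UA libraries 17.5, 3.53 and 8.65 CPM. DSS lay above Con and UA+DSS in every library, though DSS 3 exceeded Con 1 only by 5.60 against 4.91 CPM. Ccr7, the receptor for CCL19 and CCL21, read 2.12, 0.832 and 1.18 CPM in Con, 23.8, 26.2 and 5.28 CPM in DSS, 1.41, 1.81 and 0.798 CPM in UA+DSS, then 16.6, 4.15 and 6.99 CPM in DSS+UA. Its DSS libraries lay above all Con and UA+DSS libraries and overlapped DSS+UA. Ccr6, the CCL20 receptor, read 2.12, 0.111 and 0.642 CPM in Con and 7.94, 6.06 and 3.75 CPM in DSS, against 1.99, 0.687 and 1.17 CPM in UA+DSS, then 4.85, 1.61 and 3.16 CPM in DSS+UA. Its level in DSS was above all Con and UA+DSS libraries. Exons of Cxcr5 share 110 bases (3.30%) with Bcl9l on the opposite strand, and whether the counting used strand is not stated.

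Ltb read 12.2, 2.88 and 2.46 CPM in Con, 41.4, 53.1 and 8.93 CPM in DSS, 9.43, 7.0 and 4.73 CPM in UA+DSS, then 34.8, 17.9 and 21.9 CPM in DSS+UA. DSS 3 fell below Con 1 and UA+DSS 1, so the groups overlapped, and Ltb ranked second to Cxcl13 per kilobase in every group. Cxcl13 lay above Ltb without overlap in every group but Con. Below these 2 the order of group means per kilobase had neighbours whose ranges overlapped, apart from Ltb against Ccl20 in UA+DSS and the step down to Ccl19. Cxcl13 averaged 215 CPM per kilobase in DSS against 22.8 for Ltb and 9.30 for Ccr7, and in Con 9.73 against 3.86 for Ltb and 0.70 for Ccr7.

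The 3 B cell surface genes had the most uneven Con group. Ms4a1, which encodes CD20, read 15.8, 0.721 and 1.28 CPM in Con, 51.5, 26.1 and 9.88 CPM in DSS, 4.43, 1.87 and 3.24 CPM in UA+DSS, then 36.7, 8.91 and 22.7 CPM in DSS+UA. Cr2, the complement receptor CD21 of mature B cells and follicular dendritic cells, read 8.90, 0.111 and 0.374 CPM in Con, 27.4, 14.3 and 6.71 CPM in DSS, 1.86, 0.437 and 0.798 CPM in UA+DSS, then 23.7, 3.28 and 14.5 CPM in DSS+UA. Fcer2a, the low-affinity IgE receptor CD23 of follicular B cells, read 9.67, 0.222 and 0.374 CPM in Con, 12.5, 8.17 and 1.80 CPM in DSS, 0.706, 0.187 and 0.798 CPM in UA+DSS, then 11.4, 1.61 and 7.49 CPM in DSS+UA. For all 3, Con 1 lay above at least 1 DSS library, whereas Con 2 and Con 3 lay below every DSS library. Within DSS+UA, library 2 was the lowest for each tested gene but Ccl20, at 0.170 to 0.630 times the mean of libraries 1 and 3.

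Con 1 exceeded the mean of Con 2 and Con 3 for all 9 tested genes, and by very unequal factors. The ratio was 36.7 for Cr2, 32.4 for Fcer2a and 15.8 for Ms4a1, then 9.58 for Cxcr5, 5.63 for Ccr6, 4.57 for Ltb, 4.04 for Cxcl13, 3.30 for Ccl20 and 2.11 for Ccr7. The B cell surface genes thus stood out most and Ccr7 least. Over the 11 T cell markers Con 1 summed to 36.9 CPM, between Con 2 (32.5) and Con 3 (44.3). Over the 8 markers of follicular dendritic cells and stroma Con 1 summed to 338 CPM against 105 and 145 CPM. That sum rests on few genes. Mfge8 alone held 129 CPM of it in Con 1 (50.1 and 65.0 CPM in Con 2 and Con 3). Fcgr2b in Con 1 (17.0 CPM) lay between Con 2 (12.8 CPM) and Con 3 (28.2 CPM). Con 1 was also the only Con library with a positive position score. Whether a follicle in that piece of colon or its place along the colon accounts for these levels was not tested.

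DSS against Con asks what colitis did to these genes, and 5 of the 9 tested genes rose: Cxcl13, Ccr7, Cxcr5, Ccr6 and Ltb. None fell. In bulk tissue, more cells of a type and more RNA per cell cannot be told apart. Of all genes tested, 13.9% were called higher in DSS. The median log2 fold change of the 9 genes was 2.56, beside -0.03 over all genes. After Cxcl13 (above), Ccr7 rose by 3.73 (SE 0.71, adjusted p = 0.00536), Cxcr5 by 2.97 (SE 0.97, adjusted p = 0.0453), Ccr6 by 2.61 (SE 0.78, adjusted p = 0.0304) and Ltb by 2.56 (SE 0.73, adjusted p = 0.0281). Ms4a1 (2.29, adjusted p = 0.124), Cr2 (2.36, adjusted p = 0.175) and Fcer2a (1.12, 95% interval -1.57 to 3.81, adjusted p = 0.515) did not pass. The groups did not overlap for 4 genes, where 21.2% of all genes were non-overlapping and higher.

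Leaving out Con 1, which was singled out for its high values of these same genes, changed which B cell genes passed. Without it, 8 of 9 genes were called higher in DSS, all but Ccl20. Cr2 then differed by 6.00 (adjusted p = 0.0128), Ms4a1 by 4.85 (adjusted p = 0.0111) and Fcer2a by 4.61 (adjusted p = 0.0227), and the estimate for Cr2 was then above that for Cxcl13 (5.47). The Con scores that remain (-3.02 to -1.83) do not overlap those of DSS (0.37 to 3.10), so treatment and position cannot be told apart in that fit. With all 12 libraries and the position score as a covariate, 7 of 9 were called, all but Ccl20 and Fcer2a (1.86, adjusted p = 0.0796). No Con library had a score within the DSS range, and only Con 1 (5.52) lay above it. That adjustment thus leans on Con 1 and does not separate treatment from position either. Without Con 1, Cxcl13 moved to 5.47, Cxcr5 to 4.90, Ccr6 to 3.94, Ltb to 3.68 and Ccr7 to 4.18. Cxcl13 and Ccr7 were called under all 21 alternatives run, whereas the other 3 were not: without Con 2 the adjusted p was 0.104 for Cxcr5, 0.0597 for Ccr6 and 0.0924 for Ltb, and without Con 3 it was 0.120, 0.0872 and 0.0794. Without DSS 1 these 3 had adjusted p-values of 0.121, 0.0824 and 0.0681, and without DSS 2, the library rich in neutrophil markers, 0.0856, 0.0552 and 0.0834. The Cxcr5 call was also lost without UA+DSS 1, 2 or 3 or DSS+UA 3, at adjusted p-values of 0.0565 to 0.0657, with library size only (0.0510), with upper-quartile factors (0.0525), without a filter (0.111) and in the 2-group fit (0.107). Without DSS 1, Cxcl13 differed by 3.68 (adjusted p = 0.0120).

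**Figure D2:**
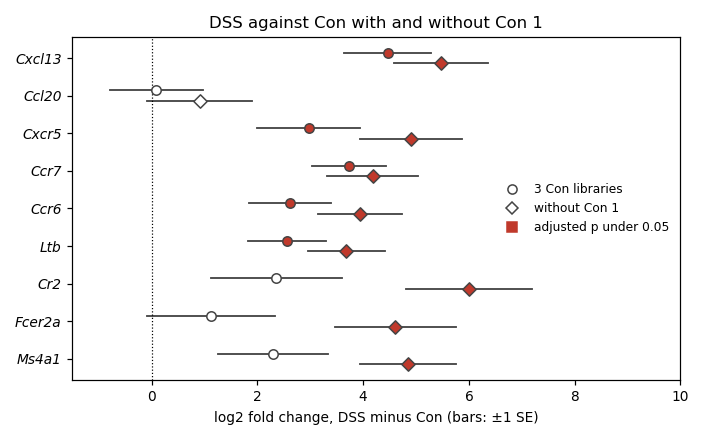
Log2 fold change of DSS minus Con for the 9 tested genes (x axis) with all 3 Con libraries (circles) and without Con 1 (diamonds); bars are ±1 SE and red marks an adjusted p under 0.05. Cr2 moves from 2.36 to 6.00 and Fcer2a from 1.12 to 4.61, whereas Ccr7 moves from 3.73 to 4.18.

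With ursolic acid begun before DSS, these genes read lower than in DSS alone. Ccr7, Cxcl13 and Cxcr5 fell against DSS, 3 of the 9 tested genes, and all 9 fold changes were negative. Of all genes, 10.5% were called lower. Ccr7 differed by -3.78 (SE 0.71, adjusted p = 0.0113), Cxcl13 by -2.84 (SE 0.76, adjusted p = 0.0295) and Cxcr5 by -3.36 (SE 1.00, adjusted p = 0.0410). The point estimates for Cr2 (-3.96, adjusted p = 0.0649), Fcer2a (-3.70, adjusted p = 0.0876) and Ms4a1 (-3.19, adjusted p = 0.0635) were larger than that of Cxcl13 but missed the threshold, as did Ltb (-2.29, adjusted p = 0.0507) and Ccr6 (-2.20, adjusted p = 0.0651). The groups did not overlap for 7 genes, beside 21.7% of all genes, and Ltb and Ccl20 were the exceptions. The median of the 9 was -3.20, against -0.02 over all genes. Markers of other cells moved in the same comparison. All 6 neutrophil markers fell (median -7.21, summed level 584 to 16580 CPM in DSS and 15.5 to 65.9 CPM in UA+DSS). Of 6 macrophage markers 3 fell (1109 to 1961 CPM against 306 to 720 CPM). Of 8 epithelial markers 3 rose (5569 to 12030 CPM against 21390 to 26430 CPM), beside 3300 of 17658 genes called in either direction. Without DSS 2, the library rich in neutrophil markers, all 6 neutrophil markers still fell (median -4.12). In that fit 1 macrophage marker fell and 1 epithelial marker rose. The part of these cells in the result was not tested.

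Leaving out Con 1, a library in neither group, left the fold changes nearly as they were (Ms4a1 -3.19, Cr2 -3.96) but lowered the SE, for Ms4a1 from 1.09 to 0.69, and 8 of 9 genes were then called lower. DESeq2 also called 8. With the position score as a covariate none was called: Ccr7 was -2.82 (adjusted p = 0.190), Cxcl13 -0.89 (adjusted p = 0.551) and Cxcr5 -0.39 (adjusted p = 0.838), and Ms4a1, Cr2 and Fcer2a turned to 0.40, 0.42 and 0.66. In that fit 3 of all genes were called. UA+DSS and DSS did not overlap in the score, so treatment and position cannot be told apart here. Leaving out UA+DSS 2 ended all 3 calls, with adjusted p-values of 0.0562 for Ccr7, 0.122 for Cxcl13 and 0.151 for Cxcr5. Cxcl13 was also lost without DSS 1 (-2.07, adjusted p = 0.0950) or UA+DSS 1 (adjusted p = 0.0903) and moved to -3.50 without UA+DSS 3 (adjusted p = 0.0473). Cxcr5 was lost without any of DSS 1, DSS 2, UA+DSS 1, UA+DSS 3 or DSS+UA 3 (adjusted p = 0.0611 to 0.108), whereas Ltb was gained without DSS 3 (adjusted p = 0.0168) and Cr2 (0.0483) and Ccr6 (0.0338) without Con 2.

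**Figure D3:**
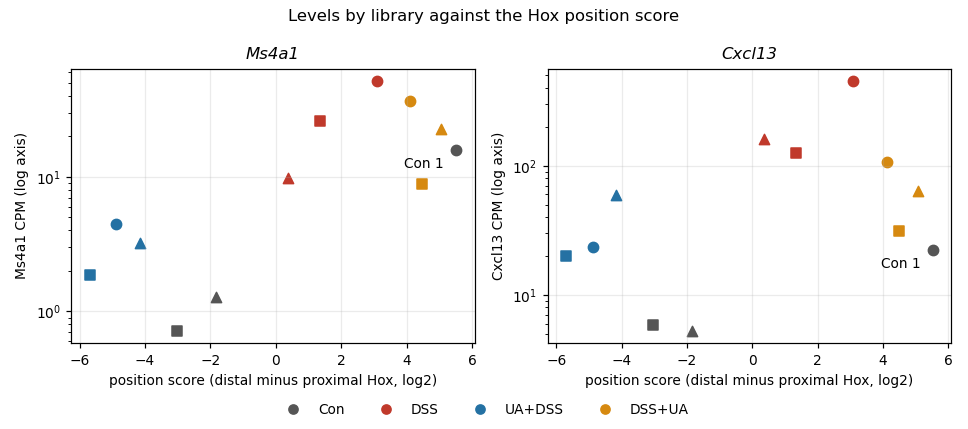
CPM of Ms4a1 and Cxcl13 (log axis) in the 12 libraries against the position score, the mean log2 level of distal minus proximal Hox genes. UA+DSS libraries have the lowest scores (-5.70 to -4.16) and Con 1 the highest (5.52), beside the DSS+UA libraries.

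With ursolic acid begun after DSS, none of the 9 genes passed the test against DSS alone, and library 2 of DSS+UA lay below every DSS library for Cxcr5, Ccr7, Ccr6, Cr2, Fcer2a and Ms4a1. By edgeR the count was 0, 1 at an unadjusted p under 0.05, beside 7.54% of all genes called in either direction. That gene was Cxcl13, at -1.87 (SE 0.73, unadjusted p = 0.0273, adjusted p = 0.120), and its 3 DSS+UA libraries lay below all DSS libraries, as in 16.4% of all genes. DESeq2 called Cxcl13 alone (adjusted p = 0.0336) and limma-voom called none. The B cell genes had small differences with wide intervals: Ms4a1 -0.36 (-2.53 to 1.82), Cr2 -0.22 (-2.79 to 2.35) and Fcer2a -0.13 (-2.77 to 2.51). Cxcr5 was -0.65 (-2.63 to 1.32) and Ccr7 -0.99 (-2.37 to 0.39). Several of these intervals reach changes of over 2-fold in both directions, so they do not show that the groups were alike. With the position score as a covariate the estimates were Cxcl13 -2.57 (adjusted p = 0.0631), Cr2 -1.84 (0.154), Ccr6 -1.78 (0.102), Cxcr5 -1.72 (0.124), Fcer2a -1.71 (0.163) and Ms4a1 -1.60 (0.111), again with none called. DSS and DSS+UA did not overlap in the score, and treatment and position cannot be told apart in this comparison. Cr2, Fcer2a and Ms4a1 turned positive without DSS 1 (0.41, 0.47 and 0.35), and Cr2 and Fcer2a without DSS+UA 2 (0.20 and 0.29).

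**Figure D4:**
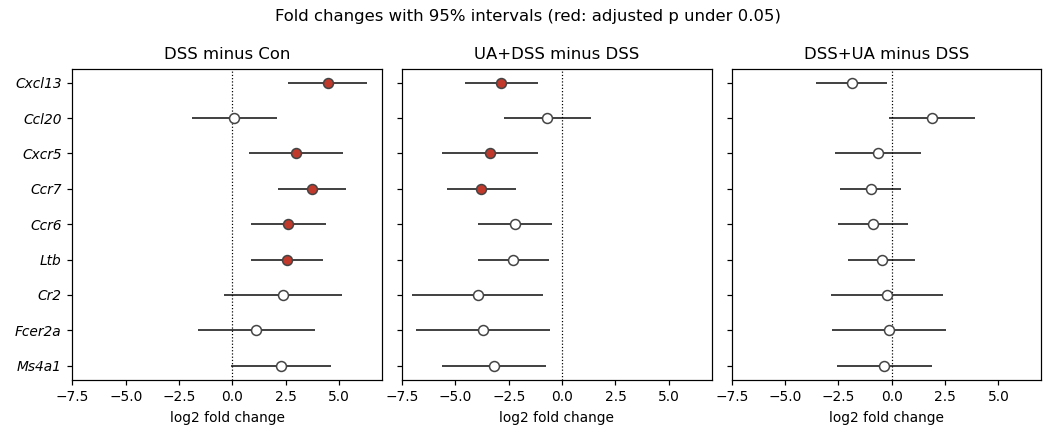
Log2 fold changes (x axis) with 95% intervals for the 9 tested genes in DSS minus Con, UA+DSS minus DSS and DSS+UA minus DSS; red points have an adjusted p under 0.05 (5, 3 and 0 genes). The 3 comparisons share the DSS libraries.

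Each ursolic acid group was also set against Con. None of the 9 was called in UA+DSS against Con by edgeR, DESeq2 or limma-voom, none had an unadjusted p under 0.05, and 0.00566% of all genes were called. Cxcl13 had the highest estimate, 1.62 (95% interval -0.01 to 3.25), and 2.63 (adjusted p = 0.575) without Con 1. In DSS+UA against Con, Ccr7 rose by 2.74 (SE 0.69, adjusted p = 0.0224) and Cxcl13 by 2.59 (SE 0.76, adjusted p = 0.0400), 2 of 9 where 9.13% of all genes were called higher. Groups did not overlap for 3 genes, those and Ltb, beside 19.8% of all genes. Without Con 1, the library singled out for its high values of these same genes, 8 of 9 were called in that comparison and Cxcl13 stood at 3.60. The Con scores that remain (-3.02 to -1.83) do not overlap those of DSS+UA (4.12 to 5.06). Treatment and position thus cannot be told apart in that fit. Both calls were lost without Con 2 (adjusted p = 0.0708 for Ccr7 and 0.117 for Cxcl13), Con 3 (0.0759 and 0.124), DSS+UA 1 (0.0715, with Ccr7 at 2.02, and 0.114) or DSS+UA 3 (0.0507 and 0.0898), and with the position score as a covariate (0.114 and 0.151). Cxcl13 was lost as well without UA+DSS 1 (0.0552) or UA+DSS 2 (0.0512), and Ltb was gained without DSS 3 (0.0376). All these comparisons share libraries with the earlier ones.

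Early and late ursolic acid were also compared with each other. Ccr7 was lower in UA+DSS than in DSS+UA by 2.79 on the log2 scale (log2 fold change -2.79, SE 0.69, adjusted p = 0.0227), 1 of 9 where 9.23% of all genes were called lower. The groups did not overlap for 7 genes, Ccl20 among them, beside 22.5% of all genes. Without Con 1, 6 were called. The Ccr7 call was lost without any single UA+DSS library (adjusted p = 0.0682, 0.0692 and 0.0742), DSS+UA 1 (-2.07, 0.0701) or DSS+UA 3 (0.0519). With the position score as a covariate none was called and 7 of the 9 signs turned positive; the scores of the 2 groups lay at opposite ends of the range.

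The members moved as a block from library to library, with exceptions. Over the 12 libraries the 28 pairs that leave out Ccl20 had Pearson correlations of log2 CPM from 0.72 to 0.99, and the 8 pairs with Ccl20 from 0.11 to 0.55. These points share the treatments, the position score and the pieces of tissue, so the correlations are a description. Counts of Cxcr5 relative to Ms4a1 stayed between 0.310 and 0.639 in all 12 libraries, while Ms4a1 itself ran from 0.721 to 51.5 CPM. Cr2 relative to Ms4a1 was 0.531 to 0.679 in DSS and 0.562 in Con 1, then 0.154 and 0.292 in Con 2 and Con 3 (from 2 and 7 counts of Cr2), 0.233 to 0.420 in UA+DSS and 0.646, 0.368 and 0.637 in DSS+UA. Fcer2a relative to Ms4a1 was 0.611 in Con 1 (exact 95% counting interval 0.507 to 0.735) and 0.182 to 0.313 in DSS.

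Cxcl13 was not in a fixed ratio to the B cell genes. Its counts relative to Ms4a1 were 8.78, 4.83 and 16.4 in DSS, 5.30, 10.7 and 18.4 in UA+DSS, and 2.92, 3.50 and 2.82 in DSS+UA. In Con they were 1.42 in Con 1, against 8.08 (exact 95% counting interval 4.52 to 15.7, from 13 counts of Ms4a1) and 4.12 (2.62 to 6.74) in Con 2 and Con 3. Every DSS+UA library thus had less Cxcl13 per Ms4a1 than every DSS and UA+DSS library, and Con 1 the least of all. For DSS+UA minus DSS the mean log2 ratio differed by -1.53 (exact two-sided permutation test, p = 0.1, the smallest that 3 against 3 allows). With no overlap between the groups this p-value could only be 0.1, so it adds no support. The position scores of DSS (0.37 to 3.10) and DSS+UA (4.12 to 5.06) do not overlap either, so treatment and position cannot be told apart here. Ccl20 went its own way in DSS+UA 2, with 2.15 counts per Ms4a1 count against 0.103 and 0.146 in DSS+UA 1 and 3.

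**Figure D5:**
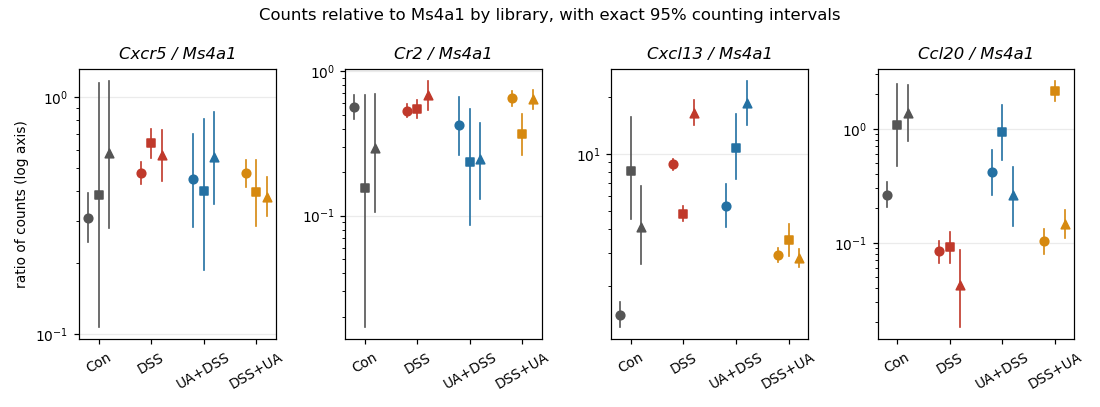
Counts of Cxcr5, Cr2, Cxcl13 and Ccl20 divided by those of Ms4a1 in each library (log axes, each panel its own scale), with exact 95% counting intervals, which cover counting error only. Cxcr5 keeps to 0.310 to 0.639, while Cxcl13 is 2.82 to 3.50 in DSS+UA and 4.83 to 18.4 in DSS and UA+DSS.

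Outside the 10 genes, the 8 whose log2 CPM was most like the mean of Cxcl13, Cxcr5, Cr2, Fcer2a and Ms4a1 included Ighd (r = 0.992), Fcmr (0.987), Cd22 (0.983), Pax5 (0.983), Ighm (0.974), Fcrl1 (0.973) and Snn (0.972), over 12 libraries. Without Con 1 these correlations were 0.973 to 0.993. Ighd and Ighm encode the heavy chains of IgD and IgM, and Cd22 and Pax5 are genes of the B cell lineage. Of the members, Ms4a1 (0.995), Cxcr5 (0.994) and Cr2 (0.990) lay closest to that mean, of which they are part, and Cxcl13 (0.880) was the least like it of the 5.

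Of 17 B cell markers tested, 8 rose in DSS against Con (median log2 fold change 2.14), with Pou2af1, a B cell transcriptional coactivator, at 1.75 (adjusted p = 0.00332) and Cd37, a tetraspanin of mature B cells, at 2.65 (adjusted p = 0.0213). Over all genes 13.9% rose. Without Con 1, 16 of the 17 rose, but that library was singled out for its high sum of these same markers. Treatment and position also cannot be told apart in that fit. With the position score as a covariate 15 rose, in a fit that leans on Con 1. Without DSS 2, the library with high neutrophil markers, 2 rose (Cd37 1.94, adjusted p = 0.0726). With early ursolic acid 13 of 17 fell relative to DSS (median -2.68), where 10.5% of all genes fell. The count was 17 without Con 1, 4 without DSS 2 and 0 with the position score. Beside 7.54% of all genes called in either direction, 0 of the 17 passed in DSS+UA against DSS (median -0.56). Their summed level was 250 to 936 CPM in DSS, 75.2 to 125 CPM in UA+DSS, then 205 to 638 CPM in DSS+UA. The medians over all genes lay between -0.03 and 0.02 in these comparisons. Of 11 T cell markers, 8 rose under DSS (median 2.16; 4 without Con 1 and 3 without DSS 2) and 2, Lef1 and Tcf7, fell in UA+DSS against DSS (1 without Con 1 and 0 without DSS 2). Neither list was compared with the other by a test.

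The pathway that makes and receives these signals changed in part. Of 18 genes of the lymphotoxin and noncanonical NF-kappaB pathway, 7 rose and 1 fell under DSS, with a median of 0.87, where 13.9% of all genes rose. Tnfsf11, the RANK ligand of follicle stroma and activated T cells, rose by 3.95 (SE 0.68, adjusted p = 0.00371), Tnfsf14, the lymphotoxin receptor ligand LIGHT, by 4.00 (SE 0.79, adjusted p = 0.00596) and Nfkb2, the precursor of p52, by 1.63 (SE 0.32, adjusted p = 0.00586). Tnfsf14 read 4.33, 20.2 and 2.38 CPM in the DSS libraries, highest in DSS 2, and without that library Tnfsf14 stood at 2.58 (adjusted p = 0.00968) and Nfkb2 at 1.02 (adjusted p = 0.00226). Under early ursolic acid 8 fell relative to DSS (3 without DSS 2 and 0 with the position score), where 10.5% of all genes fell. In DSS+UA against DSS 1 fell, Tnfsf11, at -2.49 (SE 0.63, adjusted p = 0.0406), beside 7.54% of all genes called in either direction. With the position score 0 of these genes were called there, and without DSS 2 Tnfsf11 stood at -1.93 (adjusted p = 0.121). Of 15 tested genes in other lymphoid chemokine axes, 6 rose and 1 fell under DSS. Ch25h and Cyp7b1, which act in the making of oxysterol ligands of GPR183, rose by 2.60 and 3.42, and S1pr1, the receptor for lymphocyte egress, by 2.19 (adjusted p = 0.00144). In DSS+UA against DSS 4 of the 15 fell (2 with the position score): Ackr3, a scavenger receptor for CXCL12, at -1.40, S1pr1 at -1.62, Ch25h at -1.61 and Cxcl12 at -1.28 (adjusted p = 0.00504 to 0.0424).

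Of 9 tested genes of adhesion and high endothelial venules, the vessels by which lymphocytes enter lymphoid tissue, 7 rose under DSS (5 without Con 1; median 2.74; 13.9% of all genes rose), with Vcam1 at 3.31 (SE 0.33, adjusted p = 0.000833), Icam1 at 3.25 (SE 0.47, adjusted p = 0.00244) and Madcam1, the mucosal addressin that gut-homing lymphocytes bind, at 2.68 (SE 0.45, adjusted p = 0.00346). Icam1 stood at 2.45 (adjusted p = 0.00112) without DSS 2. Early ursolic acid against DSS gave 5 lower genes (3 without DSS 2), where 10.5% of all genes were lower. Late ursolic acid against DSS gave 3 (1 with the position score), beside 7.54% of all genes called in either direction. The 3 were Vcam1 at -1.80 (adjusted p = 0.0146), Itga4 at -1.58 and Icam1 at -1.74. Without DSS 2 the last 2 lost the call (Itga4 adjusted p = 0.0851; Icam1 -0.93, adjusted p = 0.109). Vcam1 is also made by stroma and endothelium.

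Of 8 germinal centre genes, 4 rose and 1 fell under DSS (3 and 1 without Con 1), where 13.9% of all genes rose. S1pr2, which keeps B cells in the germinal centre and is also made elsewhere, rose by 1.84 (adjusted p = 0.00375), and Pdcd1 and Il21, genes of follicular helper and other activated T cells, by 3.03 and 3.31. Rgs13, a gene of germinal centre B cells that tuft and mast cells also express, fell by 3.08 on the log2 scale (log2 fold change -3.08, adjusted p = 0.0131). With early ursolic acid 3 fell relative to DSS (2 without DSS 2), where 10.5% of all genes fell. Rgs13 rose by 2.41 (adjusted p = 0.0413, and 0.0758 without DSS 2). Of the 8 genes, 0 were called in DSS+UA against DSS, beside 7.54% of all genes called in either direction. All 8 estimates were negative there (-2.06 to -0.63, median -1.20), so the lack of calls does not show that they were unchanged. Of 8 genes of follicular dendritic cells and stroma, 3 rose under DSS (6 without Con 1): Pdpn by 2.48, Fcgr2b by 3.17 and Bst1 by 5.06. Bst1 read 13.3, 166.5 and 13.7 CPM in the DSS libraries, and without DSS 2, the library with the high neutrophil markers, it differed by 2.80 (adjusted p = 0.00684). Pdpn and Fcgr2b are made by macrophages too, and the 6 macrophage markers summed to 1109 to 1961 CPM in DSS against 155 to 425 CPM in Con. Their part in the result was not tested.

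Genes of the follicle-associated epithelium and M cells, the antigen-sampling cells above follicles, rose in 6 of 8 cases under DSS (4 without Con 1). Their median was 1.95 with all libraries, and 5 of 8 fell in UA+DSS against DSS. Of all genes, 13.9% were called higher in DSS than in Con and 10.5% lower in UA+DSS than in DSS. Marcksl1 (3.75, adjusted p = 0.00489) and Tnfaip2 (3.95, adjusted p = 0.00572) are also expressed outside M cells. DSS 2 was far above DSS 1 and DSS 3 for both, at 579 against 122 and 101 CPM for Marcksl1 and 438 against 83.0 and 63.2 CPM for Tnfaip2, and without it they differed by 2.49 (adjusted p = 0.00356) and 2.53 (adjusted p = 0.00452). The part of the neutrophil-rich library in these results was not tested beyond leaving it out. Gp2, an M cell receptor for bacteria, read 361 CPM in DSS 3 and 10.4 and 0.150 CPM in DSS 1 and DSS 2, so its level did not track the B cell genes, which were lowest in DSS 3. Of 9 plasma cell genes 5 rose under DSS (2 without Con 1), and their summed level in Con 1 (3113 CPM) was below Con 2 and Con 3 (6516 and 7909 CPM), the reverse of the order of the B cell genes. Of 6 tested genes of type 3 innate lymphoid cells, which include the cells that induce follicles, 1 rose and 1 fell under DSS. Il22 rose, listed at 0 counts in Con and at 9.67, 1.05 and 0.106 CPM in DSS, and was not called without Con 1. Kit fell, at -1.21 (adjusted p = 0.0239), with 42.1, 89.7 and 112.9 CPM in Con and 22.9, 43.4 and 39.7 CPM in DSS. Which cells made these transcripts was not tested. With the position score as a covariate, no gene of these lists was called in UA+DSS against DSS.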

How the data were processed

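Colon RNA was sequenced from 12 libraries, 3 per group by the labels. The authors deposited raw gene counts per library (HISAT2, GRCm38, with FastQC and Cuffdiff also named in their processing notes; no version or strand setting was named). Counts were joined over 54532 genes and named with GENCODE M21 (54495 named). Ccl19 was taken at its chromosome 4 entry, since another entry of that symbol held 1 count. One fit over all 12 libraries used edgeR 4.0.16 (filterByExpr, TMM, robust quasi-likelihood, Benjamini-Hochberg, threshold 0.05) on 17658 genes, of which 9 of the 10 members passed the filter. SE is the log2 fold change divided by the square root of F. CPM is a count divided by the TMM-scaled library size. The script was tested on simulated data. Total counts of 15566216 to 19498383 set the counting error, which intervals and floors cover alone. Alternatives were DESeq2 1.42.0, limma-voom 3.58.1, other scalings and filters, 2-group fits, the replicate number as a block, the position score as a covariate and leaving out each library. Replicate libraries differed beyond counting noise in every group. Named genes were the 10 members, at most the 4 genes of a list with the smallest p in a comparison, and the 8 genes most like the follicle profile; some genes under this rule are not reported here. Members and lists were chosen with earlier results of these data known. Promoters are RefSeq windows on GRCm38.p6.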

Additional observations from a re-analysis of the deposited data

Results flagged for a closer look

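Ccr7 differed between the start times of ursolic acid: UA+DSS minus DSS+UA was -2.79 on the log2 scale (SE 0.69, n = 3 a group, adjusted p = 0.0227, edgeR quasi-likelihood test over all genes), with 1.41, 1.81 and 0.798 CPM in UA+DSS against 16.6, 4.15 and 6.99 CPM in DSS+UA. It stood out because the effect of the drug over the shared DSS group differed by a test of the difference itself. The call was kept under 14 of 21 alternatives. It was lost by limma-voom, with the position score, without any single UA+DSS library, and without DSS+UA 1 or DSS+UA 3. The position score was -5.70 to -4.16 in UA+DSS and 4.12 to 5.06 in DSS+UA, and with it as a covariate Ccr7 was -1.49 (adjusted p = 0.665). Timing, the days of dosing (7 against 4 by the methods) and the stretch of colon sampled cannot be told apart in these groups.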

How the results depend on the processing

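Of 1104 fold changes of members recomputed under 21 alternatives, 932 kept direction and side of the threshold, 61 lost the call, 67 gained one and 44 turned sign. The cause was not tested unless stated. Members called in DSS against Con numbered 2 in the 2-group fit, 3 without a filter and 3 of 4 tested with at least 10 counts in every sample, and 2 to 8 leaving out 1 library. Counts for UA+DSS against DSS were 7 (2-group), 8 (DESeq2), 1 (no filter), 0 (position score) and 0 to 8 leaving out 1 library. DESeq2 called 1 in DSS+UA against DSS. For DSS+UA against Con they were 1 (2-group, library size only, limma-voom, no filter), 4 (DESeq2), 0 (position score) and 0 to 8. For UA+DSS against DSS+UA they were 7 (2-group, DESeq2), 0 (limma-voom, position score) and 0 to 6. The numbers of replicates did not pair samples: correlations of same-numbered deviations ran from -0.22 to 0.19 and 5 of 18 pairs exceeded 0.1. With the replicate block, 7 members were called in DSS against Con, 7 with early ursolic acid against DSS, 5 in DSS+UA against Con and 5 in UA+DSS against DSS+UA, and 552 genes in DSS+UA against DSS.

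Genes called leaving out 1 library ran from 2894 to 4708 (DSS against Con), 183 to 4112 (UA+DSS against DSS), 25 to 1825 (DSS+UA against DSS), 0 to 4 (UA+DSS against Con), 1062 to 4057 (DSS+UA against Con) and 560 to 3893 (UA+DSS against DSS+UA). The 2-group fits called 2131, 2072, 430 and 2035 genes in DSS against Con, early ursolic acid against DSS, late ursolic acid against DSS and late ursolic acid against Con. DSS+UA against DSS gave 3126 genes by DESeq2, 882 without a filter and 199 with the position score, which left 3 in UA+DSS against DSS and 0 in UA+DSS against DSS+UA. UA+DSS against Con gave 376 by DESeq2 and 0 by limma-voom, without a filter, with at least 10 counts in every sample and with the position score.

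No fold change that turned sign was past the threshold under that setting. For DSS minus Con, Ccl20 was -0.10 by limma-voom, -0.15 with the position score, -0.24 with the replicate block and -0.67 to 0.90 leaving out 1 library. Leaving out 1 library, DSS+UA minus DSS ran from -0.84 to 0.41 for Cr2, -0.70 to 0.47 for Fcer2a and -0.87 to 0.35 for Ms4a1, and UA+DSS minus DSS from -1.18 to 0.058 for Ccl20. UA+DSS minus Con ran from -0.998 to 0.22 for Ccl20, -0.10 to 1.74 for Ccr6, -0.32 to 0.41 for Ccr7, -2.31 to 2.04 for Cr2, -0.89 to 1.55 for Cxcr5, -3.13 to 0.91 for Fcer2a, -0.12 to 1.4 for Ltb and -1.42 to 1.66 for Ms4a1. There limma-voom gave Cr2 0.14, Cxcr5 0.42 and Ms4a1 0.25, the replicate block gave Cxcr5 0.16, and the position score gave Ccl20 1.07, Ccr7 0.78, Cr2 3.65, Cxcr5 2.73, Fcer2a 2.52 and Ms4a1 3.02. The position score also gave, for UA+DSS minus DSS, Ccl20 1.22, Cr2 0.42, Fcer2a 0.66 and Ms4a1 0.40, and for UA+DSS minus DSS+UA, Ccr6 1.78, Cr2 2.26, Cxcl13 1.67, Cxcr5 1.33, Fcer2a 2.38, Ltb 0.67 and Ms4a1 2.0. At 3 libraries a group, and at 2 to 13 counts of Cr2, Fcer2a and Ms4a1 in Con 2, depth and number both limit what could be seen of these genes.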
